A study of Mus musculus with 6 samples.

Results

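Hepcidin and the genes that sense, move and store iron were followed in bulk RNA-seq of mouse liver. They are 10 genes of the 25403 listed in the count table, each found by its gene symbol: *Hamp*, *Hamp2*, *Bmp6*, *Id1*, *Hfe*, *Tfr2*, *Tfrc*, *Slc40a1*, *Fth1* and *Ftl1*. Each symbol stood on 1 row, and all 10 genes had enough counts to be tested. The samples were 6 livers, 3 labelled WT (wild-type C57BL6/J) and 3 labelled *Themis*-KO (whole-body loss of *Themis*, a T cell signalling protein). All mice had been fed a MASH diet, in which fat gave 40% and fructose 20% of the energy with 2% cholesterol, for 3 months from an age of 10 to 12 weeks. MASH is the inflamed form of fatty liver disease. No group on normal diet was part of this comparison. The question was how loss of *Themis* alters gene expression in the diet-fed liver, here for iron handling.

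Hepcidin is a peptide hormone made mainly by hepatocytes, and it lowers plasma iron by blocking and degrading ferroportin, the cellular iron exporter. Its gene is switched on by BMP6 from liver endothelial cells through SMAD signalling, with the hepatocyte proteins HFE and TFR2 acting as sensors of transferrin-bound iron, and by IL-6 through STAT3 in inflammation. Inside cells, iron regulatory proteins bind hairpins called iron-responsive elements in messages for ferritin, ferroportin and the transferrin receptor, and iron that is not used is stored in ferritin.

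The control regions of the hepcidin genes are shown because mouse carries a pair of these genes side by side, with closely related upstream sequence but different levels in these livers. Below are the 250 bases before the RefSeq start of each gene on GRCm38.p6, at chr7:30944030-30944279 for *Hamp* and chr7:30924182-30924431 for *Hamp2*, both on the minus strand. Capitals mark matches to GGCGCC, the core of the proximal BMP response element, and to TTCTTGGAA, the form of the STAT3 site.
Hamp: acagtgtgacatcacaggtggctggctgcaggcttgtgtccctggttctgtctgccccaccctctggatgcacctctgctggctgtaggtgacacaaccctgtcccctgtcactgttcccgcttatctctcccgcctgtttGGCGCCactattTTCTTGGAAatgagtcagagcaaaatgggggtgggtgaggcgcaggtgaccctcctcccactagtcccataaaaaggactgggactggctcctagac
Hamp2: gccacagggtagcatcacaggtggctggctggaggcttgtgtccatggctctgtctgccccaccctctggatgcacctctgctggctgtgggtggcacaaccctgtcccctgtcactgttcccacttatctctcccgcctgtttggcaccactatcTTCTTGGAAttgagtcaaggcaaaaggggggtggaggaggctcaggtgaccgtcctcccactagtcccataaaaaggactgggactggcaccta

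Aligned to each other, the windows shared 227 of 247 aligned bases (91.9%). One of the 20 substitutions lay in the BMP element, G145A, counted from 1 at the 5′ end of the *Hamp* window, with the *Hamp* base first. The *Hamp2* window therefore read GGCACC there, while the 9 letters of the STAT3 site were the same in both. On either strand, GGCGCC was found in 9.59% and TTCTTGGAA in 0.365% of 32851 RefSeq promoter windows of this length. Among the members with a window, GGCGCC was also in that of *Tfrc*, and TTCTTGGAA was in no other. RefSeq windows were matched for 8 of the 10 genes, all but *Id1* and *Slc40a1*. GENCODE vM21 places the 5′ end of *Hamp2* further upstream than RefSeq, at 30924681, so the *Hamp2* window lies inside the gene as annotated there. For *Hamp* it places that end at 30944032, at the edge of the window.

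Iron-responsive elements are shown because 4 of the 10 genes carry them and are controlled after transcription, at a step that a count of mRNA reads only in part. They were searched in GENCODE vM21 transcripts (GRCm38) as C, 5 bases, CAGTGN and 5 bases, on the transcript strand, with both runs of 5 bases paired. Of 21291 protein-coding transcripts searched, 1 per gene, 1.11% held such an element. Capitals mark the loop in the following 27-base stretches. They lie in the 5′ UTR at chr19:9982733-9982759 (plus strand) for *Fth1*, chr7:45459780-45459806 (minus) for *Ftl1* and chr1:45925466-45925492 (minus) for *Slc40a1*, and in the 3′ UTR of *Tfrc*, where 4 were found, of which the one at chr16:32631711-32631737 (plus) is given.
Fth1: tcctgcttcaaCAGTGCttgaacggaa
Ftl1: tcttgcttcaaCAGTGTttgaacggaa
Slc40a1: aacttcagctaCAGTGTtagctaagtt
Tfrc: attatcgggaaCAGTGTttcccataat

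Total counts per liver ran from 20679642 to 25649767. The targeted gene was read first: *Themis* stood at 8.07, 25.6 and 12.0 CPM (counts scaled to a common library size) in the livers labelled WT and at 8.63, 7.74 and 9.97 CPM in those labelled *Themis*-KO, so its counts did not separate the labels. The part of the gene that the allele removes is not given in the sources used here, and groups are therefore named by their labels. WT replicates 1 and 2 also stood apart in a mitochondrial sequence type. In them *Gm28438* took 96.6% and 96.8% of the counts of *Gm28438* and *mt-Nd3* together, against 2.20% to 3.26% in the other 4 livers, a split that cannot be fully told apart from the labels. Results without those 2 livers, with WT replicate 3 as the only WT liver, are given where they bear on a value. The tissue label held: the summed level of 10 hepatocyte markers, such as *Alb* and *Ttr*, was between 52462 and 70371 CPM in every liver.

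With edgeR's quasi-likelihood test and Benjamini-Hochberg adjustment over 14496 genes, 0 of the 10 genes passed an adjusted p of 0.05 in either direction, where 4.97% of all genes tested were called with a higher level under the *Themis*-KO label and 4.14% with a lower one. At an unadjusted p under 0.05 there were 2 of the 10, *Id1* and *Tfr2*, against 30.7% of all genes. DESeq2 called the same 2, against 17.0% of the genes to which it gave an adjusted p. Every liver labelled *Themis*-KO lay above every liver labelled WT for 2 genes, *Id1* and *Fth1* (17.7% of all genes tested), and below for 1, *Tfr2* (16.9%). Log2 fold changes, given throughout as *Themis*-KO minus WT, were positive for 9 of the 10 genes, against 51.0% of all genes. Their median was 0.10, against 0.01 over all genes tested.

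**Figure D1:**
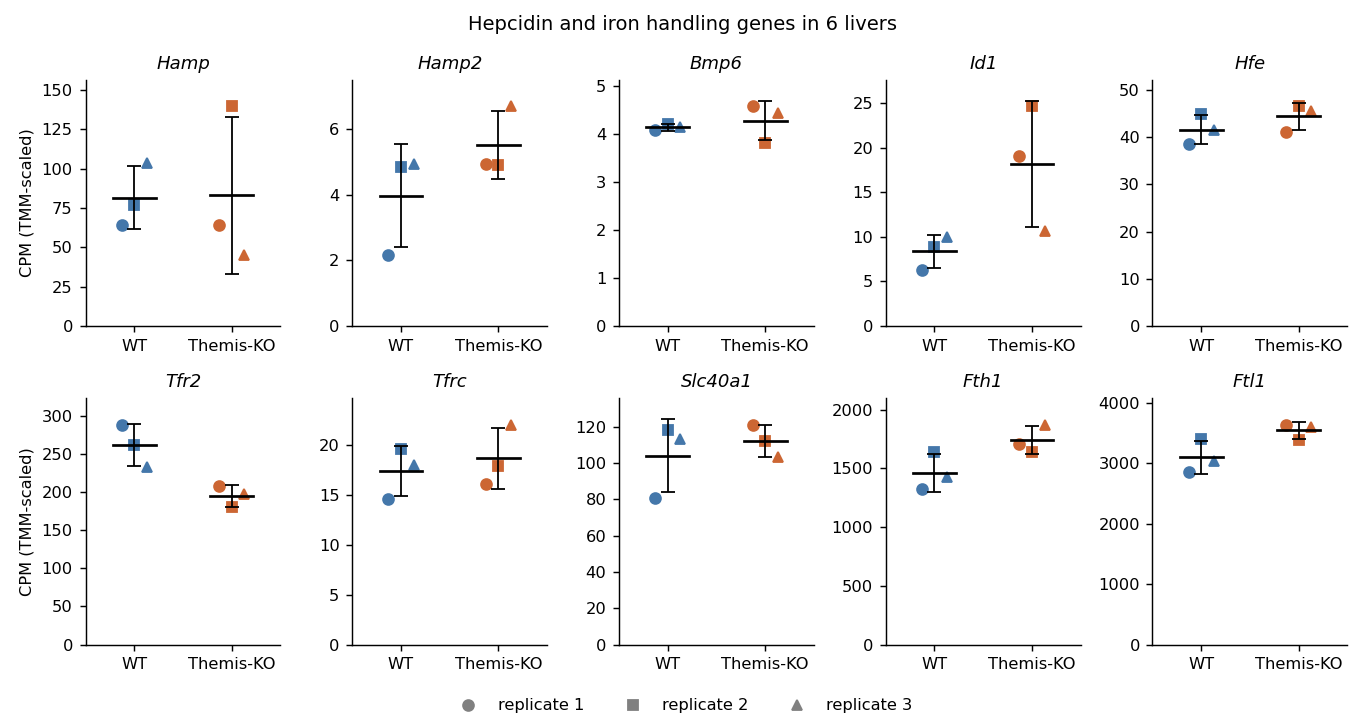
Level of each gene in CPM (vertical axes, linear and starting at 0) in the 3 livers labelled WT (blue) and the 3 labelled *Themis*-KO (orange). Symbols mark replicates, lines the mean and bars the SD (n = 3). *Id1* and *Fth1* sit higher and *Tfr2* lower in all 3 *Themis*-KO livers, while *Hamp* spreads from 44.9 to 140 CPM within the *Themis*-KO group.

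*Hamp* (ENSMUSG00000050440, chr7:30942368-30944032, minus strand), which encodes hepcidin itself, did not separate the groups. Its level was 64.0, 77.1 and 104 CPM in WT replicates 1 to 3 and 64.5, 140 and 44.9 CPM in *Themis*-KO replicates 1 to 3. The highest and the lowest of all 6 livers both belonged to the *Themis*-KO label, and the WT livers lay between them. The group means were 81.5 ± 20.1 and 83.1 ± 50.1 CPM (SD, n = 3), with a log2 fold change of 0.03 ± 0.39 (SE) and an adjusted p of 0.968 (edgeR). The 95% interval ran from −0.87 to 0.92 on the log2 scale, so these livers leave room for a difference in either direction. Without *Themis*-KO replicate 2 the log2 fold change was −0.59 (adjusted p = 0.222), and without both WT livers of the other mitochondrial type it was −0.33 (adjusted p = 0.870).

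*Hamp2* (ENSMUSG00000056978, chr7:30922372-30924681, minus strand) encodes a second hepcidin-like peptide whose part in iron control is less clear. It stood at 2.16, 4.85 and 4.93 CPM in the livers labelled WT and at 4.93, 4.90 and 6.71 CPM in those labelled *Themis*-KO, on 47 to 142 counts. WT replicate 1 was lowest and *Themis*-KO replicate 3 highest, and the groups overlapped. The log2 fold change was 0.47 ± 0.31 (adjusted p = 0.337, edgeR), with a 95% interval from −0.25 to 1.18. Without WT replicate 1 it was 0.17.

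The hepcidin genes rose in the same order of livers under the WT label, replicates 1 to 3, but not under the *Themis*-KO label. There *Hamp2* was about equal in replicates 1 and 2 (4.93 and 4.90 CPM), where *Hamp* was at 64.5 and 140 CPM. *Hamp2* made up 3.26%, 5.92% and 4.55% of the summed *Hamp* and *Hamp2* CPM in the livers labelled WT, and 7.10%, 3.39% and 13.0% in those labelled *Themis*-KO. The share was highest in *Themis*-KO replicate 3, where *Hamp* was lowest and *Hamp2* highest. The mean shares differed by 3.26 percentage points with an exact two-sided permutation p of 0.3, in a design whose smallest possible p is 0.1. Of the words of 31 bases in the *Hamp* transcript, 33.7% also occur in that of *Hamp2*, and RSEM divides reads that match both, so the smaller gene's level depends on that division.

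*Bmp6* (ENSMUSG00000039004, chr13:38345107-38500302, plus strand) is the main iron-regulated ligand upstream of hepcidin. It stood at 4.08, 4.22 and 4.14 CPM in the livers labelled WT and at 4.59, 3.83 and 4.44 CPM in those labelled *Themis*-KO. Its spread was the smallest of the 10 under the WT label (SD 1.70% of the mean), but on only 88 to 105 counts. Under the *Themis*-KO label it was 9.41%, wider than for *Hfe*, *Tfr2*, *Slc40a1*, *Fth1* and *Ftl1*. The groups overlapped, with a log2 fold change of 0.05 ± 0.15 (adjusted p = 0.853, edgeR) and a 95% interval from −0.30 to 0.39. *Bmp2*, the other endothelial ligand of this route, had a log2 fold change of 0.18 (adjusted p = 0.547).

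*Id1* (ENSMUSG00000042745, chr2:152736251-152737410, plus strand) encodes an inhibitor of DNA-binding proteins and is a direct target of SMAD signalling, often read beside hepcidin. It stood at 6.33, 8.88 and 9.98 CPM in the livers labelled WT and at 19.1, 24.7 and 10.6 CPM in those labelled *Themis*-KO. The groups did not overlap, but *Themis*-KO replicate 3 lay close to the highest WT liver. Group means were 8.40 ± 1.87 and 18.1 ± 7.08 CPM (SD, n = 3), and the log2 fold change was 1.11 ± 0.30, with a 95% interval from 0.41 to 1.81. It did not pass edgeR's adjusted test (adjusted p = 0.0592, unadjusted p = 0.00671). Over the 15 other fits the log2 fold change stayed between 0.81 and 1.36 and the adjusted p between 0.00331 and 0.649, with 4 under the threshold. Those 4 were DESeq2, no filter on low counts, total counts alone and the fit without *Themis*-KO replicate 3, in which it was 0.00419. Without both WT livers of the other mitochondrial type the log2 fold change was 0.84 (adjusted p = 0.649).

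*Id1* and hepcidin are both SMAD targets. Within each label the same liver was lowest and the same liver highest for *Id1* and *Hamp*: WT replicates 1 and 3, and *Themis*-KO replicates 3 and 2. *Themis*-KO replicate 2 had the highest level of both genes over all 6 livers. Across the labels the order differed. *Themis*-KO replicate 1, with *Id1* at 19.1 CPM, had *Hamp* at 64.5 CPM, close to the 64.0 CPM of WT replicate 1, whose *Id1* was lowest of all. Endothelial cells also express *Id1*. In the list of 10 endothelial markers 1, *Lyve1*, was called higher by edgeR and 1 by DESeq2, with 3 at an unadjusted p under 0.05. None was under 1 CPM in every liver, and the summed level was 327 to 369 CPM in the livers labelled WT and 371 to 415 CPM in those labelled *Themis*-KO. The part of these cells in the *Id1* values was not tested. In bulk tissue, fewer cells of a type and less RNA per cell cannot be told apart.

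*Id3* and *Smad7*, further SMAD targets that were named after their values were seen, shared the liver pattern of *Id1*. *Id3* was at 24.3, 23.1 and 28.3 CPM in the livers labelled WT and at 69.1, 71.6 and 27.4 CPM in those labelled *Themis*-KO, so that *Themis*-KO replicate 3 lay within the WT range. Its log2 fold change was 1.15 (adjusted p = 0.0627, edgeR). *Smad7*, a feedback inhibitor of SMAD signalling, had a log2 fold change of 0.62 (adjusted p = 0.0839), with 16.4 and 18.7 CPM in *Themis*-KO replicates 1 and 2 and 10.7 CPM in replicate 3. Without that replicate the adjusted p was 0.00104 for *Id3* and 0.00401 for *Smad7*, and without *Themis*-KO replicate 2 they were 0.192 and 0.252. Calls without *Themis*-KO replicate 3 were not particular to these targets, since that fit called 2228 higher and 2039 lower of 14806 genes. *Smad6* had the same pattern (log2 fold change 0.32, adjusted p = 0.177, edgeR), but *Id2* and *Atoh8* did not. *Id2* was at 211, 103 and 120 CPM under the WT label and at 169, 166 and 79.1 CPM under the *Themis*-KO label (adjusted p = 0.911). *Atoh8* was at 17.1, 10.8 and 17.8 CPM and at 17.0, 26.3 and 14.3 CPM (adjusted p = 0.413).

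**Figure D2:**
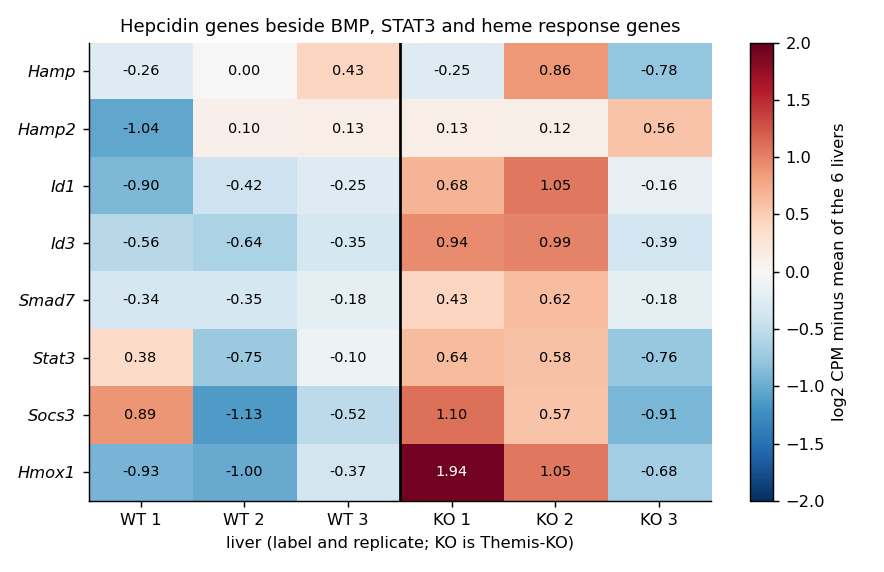
Log2 CPM of each gene in each liver minus its mean over the 6 livers (colour and printed value), for *Hamp*, *Hamp2*, the SMAD targets *Id1*, *Id3* and *Smad7*, STAT3 with its target *Socs3*, and *Hmox1*. *Themis*-KO replicates 1 and 2 are high and replicate 3 is at WT levels for *Id1*, *Id3*, *Smad7* and *Hmox1*, whereas *Hamp* is highest in *Themis*-KO replicate 2 (0.86) and WT replicate 3 (0.43).

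Genes of the inflammatory input to hepcidin were read as mRNA in the same livers. *Stat3*, the factor that carries the IL-6 signal, was at 171, 78.3 and 123 CPM in the livers labelled WT and at 205, 197 and 77.6 CPM in those labelled *Themis*-KO. Its target *Socs3* was at 21.9, 5.33 and 8.17 CPM and at 25.4, 17.5 and 6.23 CPM. For both genes WT replicate 1 was high beside *Themis*-KO replicates 1 and 2, and the groups overlapped (adjusted p = 0.551 and 0.613, edgeR). *Hamp* was not high in WT replicate 1 or in *Themis*-KO replicate 1, where *Socs3* was highest. In *Themis*-KO replicate 2, where *Stat3* and *Socs3* were also high, *Hamp* was highest (140 CPM). In *Themis*-KO replicate 3, where *Stat3* was lowest and *Socs3* low, *Hamp* was lowest (44.9 CPM). The part of this input in the *Hamp* values was not tested.

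*Tfr2* (ENSMUSG00000029716, chr5:137569840-137587481, plus strand), the hepatocyte sensor of iron-loaded transferrin, was the one gene of the 10 with a lower level under the *Themis*-KO label. It stood at 288, 262 and 233 CPM in the livers labelled WT and at 209, 180 and 197 CPM in those labelled *Themis*-KO. Every *Themis*-KO liver lay below every WT liver. Group means were 261 ± 27.6 and 195 ± 14.3 CPM (SD, n = 3), a log2 fold change of −0.42 ± 0.11 with a 95% interval from −0.67 to −0.17. The adjusted p was 0.0504 (edgeR, unadjusted p = 0.00463), just outside the threshold. Over the 15 other fits the log2 fold change was between −0.50 and −0.26 and the adjusted p between 0.00658 and 0.629, with 6 under the threshold. Among those 6 were RLE size factors (0.0468) and DESeq2 (0.00658). Without both WT livers of the other mitochondrial type the log2 fold change was −0.28 (adjusted p = 0.629).

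*Tfr2* is a gene of hepatocytes, and hepatocyte markers moved the same way. Of 10 hepatocyte markers 9 had a negative log2 fold change, with a median of −0.28, and 1, *Cyp2e1*, was called lower by edgeR. At an unadjusted p under 0.05 there were 4, and DESeq2 called 5 lower. None was under 1 CPM in every liver, and their summed level was 65350.5 to 70371 CPM in the livers labelled WT and 52462 to 56054 CPM in those labelled *Themis*-KO. Their part in the lower *Tfr2* level was not tested.

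*Hfe* (ENSMUSG00000006611, chr13:23702034-23710854, minus strand), the partner of TFR2 whose human gene is mutated in the common form of hereditary iron overload, showed no such difference. It stood at 38.5, 44.8 and 41.4 CPM in the livers labelled WT and at 41.1, 46.5 and 45.5 CPM in those labelled *Themis*-KO. The groups overlapped, with a log2 fold change of 0.09 ± 0.09 (adjusted p = 0.514, edgeR) and a 95% interval from −0.12 to 0.31. The log2 ratio of *Tfr2* to *Hfe* was 2.90, 2.55 and 2.49 in the livers labelled WT and 2.34, 1.95 and 2.12 in those labelled *Themis*-KO. These groups did not overlap, with a mean difference of −0.51 and an exact two-sided permutation p of 0.1, the smallest that 3 livers against 3 can give. The ratio was formed after both genes' values were seen.

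Around these sensors, *Hjv* (hemojuvelin, the BMP co-receptor) and *Tmprss6* (matriptase-2, which cleaves hemojuvelin and holds hepcidin down) did not pass the test. *Hjv* was at 82.9, 97.4 and 82.3 CPM in the livers labelled WT and at 62.8, 60.4 and 96.8 CPM in those labelled *Themis*-KO, a log2 fold change of −0.26 (adjusted p = 0.370, edgeR). *Themis*-KO replicate 3 alone lay in the WT range, and without it the log2 fold change was −0.52 (adjusted p = 0.00976, edgeR). That fit also called 2228 higher and 2039 lower of all 14806 genes it tested. Among the fits with 1 liver left out it was the only 1 to call *Hjv*. The log2 fold change in them ran up to −0.14, without *Themis*-KO replicate 2, and the adjusted p up to 0.708. *Tmprss6* had a log2 fold change of −0.16 (adjusted p = 0.306). In the list of 18 further genes of the BMP-SMAD arm, 17 were tested and none was called, with a median log2 fold change of 0.08. At an unadjusted p under 0.05 there were 2, *Id3* and *Smad7*, and DESeq2 called 2. Of the 9 genes of the inflammatory arm 8 were tested and none was called, with a median of 0.27 and 1, *Inhbb*, under an unadjusted p of 0.05, and DESeq2 called 1. The untested genes of these lists were *Erfe* and *Il6*, whose counts were too low. By DESeq2, over all 6 lists of further iron and heme genes (76 tested), 7 were called higher and 7 lower. Of all genes with an adjusted p, DESeq2 called 17.0% in either direction, so these lists stood near that share.

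**Figure D3:**
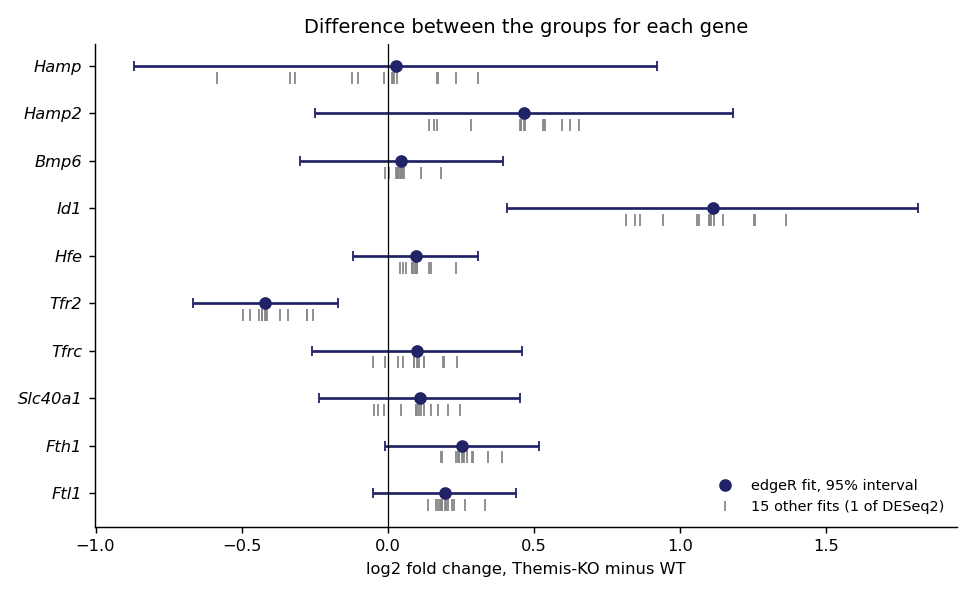
Log2 fold change of each of the 10 genes, *Themis*-KO minus WT (horizontal axis), with its 95% interval from edgeR (points and bars). Grey ticks below each point are the same value in 15 other fits. The intervals of *Id1* (0.41 to 1.81) and *Tfr2* (−0.67 to −0.17) exclude 0 before adjustment, and the ticks of *Hamp* fall on both sides of 0.

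*Tfrc* (ENSMUSG00000022797, chr16:32608920-32632794, plus strand), the transferrin receptor for iron uptake, whose message is stabilised through its 3′ elements when iron is scarce, overlapped between the groups. It stood at 14.6, 19.6 and 18.0 CPM in the livers labelled WT and at 16.1, 17.9 and 22.1 CPM in those labelled *Themis*-KO. The lowest liver was WT replicate 1 and the highest *Themis*-KO replicate 3. The log2 fold change was 0.10 ± 0.15 (adjusted p = 0.687, edgeR), with a 95% interval from −0.26 to 0.46. Immature red cells express *Tfrc* strongly. Of the erythroid markers, 4 globins were tested and none was called by edgeR or DESeq2 or had an unadjusted p under 0.05, while *Slc4a1* and *Epb42* were under 1 CPM in every liver. The globin *Hbb-bs*, the highest of them, was at 80.1, 82.6 and 80.8 CPM in the livers labelled WT and at 100.5, 66.9 and 101 CPM in those labelled *Themis*-KO, so the groups overlapped.

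*Slc40a1* (ENSMUSG00000025993, chr1:45908068-45926523, minus strand) encodes ferroportin, the exporter that hepcidin acts on, and is expressed by Kupffer cells and hepatocytes. It stood at 80.9, 118 and 113 CPM in the livers labelled WT and at 121, 112 and 103 CPM in those labelled *Themis*-KO. WT replicate 1 was low and the other 5 livers lay within 103 to 121 CPM. The log2 fold change was 0.11 ± 0.15 (adjusted p = 0.646, edgeR), with a 95% interval from −0.23 to 0.45. Without WT replicate 1 it was −0.05.

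Macrophage markers were mixed beside *Slc40a1*. Of 10 such markers 8 had a positive log2 fold change, with a median of 0.57, and 1, *Cd68*, was called higher by edgeR. At an unadjusted p under 0.05 there were 5, and DESeq2 called 5 higher. None was under 1 CPM in every liver, and their sum was 387 to 663 CPM in the livers labelled WT and 632 to 786 CPM in those labelled *Themis*-KO. WT replicate 1 had the lowest sum, as it had the lowest *Slc40a1*, but WT replicate 2 had a sum of 391 CPM with *Slc40a1* at 118 CPM. The Kupffer cell markers in this list were not called by edgeR. Their log2 fold changes were 0.14 for *Clec4f*, 0.22 for *Vsig4*, 0.70 for *Cd5l*, −0.63 for *Timd4* and −1.29 for *Marco*. For *Cd5l* the unadjusted p was 0.00842 (edgeR), and every liver labelled *Themis*-KO lay above every liver labelled WT. *Marco* was at 8.67, 9.84 and 53.0 CPM in the livers labelled WT, so its negative value rested on WT replicate 3. The part of macrophages in the *Slc40a1* values was not tested.

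*Fth1* (ENSMUSG00000024661, chr19:9980598-9985098, plus strand) encodes the ferritin heavy chain, which oxidises iron for storage. It stood at 1320, 1638 and 1423 CPM in the livers labelled WT and at 1710, 1640 and 1872 CPM in those labelled *Themis*-KO. The groups did not overlap, but the lowest *Themis*-KO liver and the highest WT liver were about equal. The log2 fold change was 0.25 ± 0.11 (adjusted p = 0.174, edgeR), with a 95% interval from −0.01 to 0.52. Of the 15 other fits it was called in 1, which used total counts as the scale (0.39, adjusted p = 0.0471) and moved the median of all genes to 0.15.

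*Ftl1* (ENSMUSG00000050708, chr7:45457944-45459884, minus strand) encodes the light chain, which supports formation of the iron core. It stood at 2860, 3397 and 3030 CPM in the livers labelled WT and at 3639, 3385 and 3605 CPM in those labelled *Themis*-KO. WT replicate 2 lay above *Themis*-KO replicate 2, so the groups overlapped. The log2 fold change was 0.19 ± 0.11 (adjusted p = 0.247, edgeR), with a 95% interval from −0.05 to 0.44. The row *Ftl1-ps1*, whose transcript holds 15.7% of the words of 31 bases in that of *Ftl1*, took 292 to 431 counts per liver. *Ftl1* took 62341 to 85645.

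The ferritin chains kept almost the same proportion in every liver. *Ftl1* stood at 2.17, 2.07 and 2.13 times the CPM of *Fth1* in the livers labelled WT and at 2.13, 2.06 and 1.93 times in those labelled *Themis*-KO. The lowest ratio was that of *Themis*-KO replicate 3. The log2 ratio of *Fth1* to *Ftl1* differed by 0.06 between the groups, with an exact two-sided permutation p of 0.2.

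Between genes, levels were compared per kb of annotated exon. In livers labelled WT, *Ftl1* was highest at 2310.2 ± 205 CPM per kb (SD, n = 3), followed by *Fth1* at 421 ± 46.7, *Hamp* at 199 ± 49.1 and *Tfr2* at 60.2 ± 6.36. These 4 ranges did not overlap over the 6 livers. *Slc40a1* at 11.6 ± 2.25 and *Hfe* at 11.6 ± 0.881 CPM per kb could not be ordered, nor could *Id1* at 7.24 ± 1.62 and *Hamp2* at 6.82 ± 2.71. In livers labelled *Themis*-KO, *Id1* at 15.6 ± 6.10 overlapped *Hfe* at 12.4 ± 0.804 and *Slc40a1* at 12.5 ± 0.992 CPM per kb. Under the WT label *Tfrc* followed at 2.81 ± 0.408 and *Bmp6* was lowest at 1.06 ± 0.0180. Per kb of the first listed transcript, a choice made after the data were examined, the means of the first 4 kept their order under the WT label, with *Fth1* at 1572 CPM per kb. *Tfr2*, at 61.5 to 98.6 over the 6 livers, then overlapped *Hfe*, at 74.7 to 90.2. Under the *Themis*-KO label the mean of *Hfe* (86.0) was above that of *Tfr2* (66.8). The *Hfe* transcript used there is only 516 bases long, against 3572 bases of annotated exon. For *Tfr2* these lengths are 2926 and 4336 bases, so the changed order came with the short length taken for *Hfe*.

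Other genes of iron and heme handling were read from 6 lists of 82 genes, of which 76 were tested. In them 3 were called higher and 4 lower, beside the 4.97% and 4.14% of all genes given above, and the median log2 fold change was −0.05. The livers labelled *Themis*-KO were higher in *Cp* (ceruloplasmin, the ferroxidase that loads iron onto transferrin, log2 fold change 0.38, adjusted p = 0.0478), *Slc48a1* (the lysosomal heme exporter HRG1, 0.44, 0.0345) and *Lcn2* (lipocalin-2, which binds bacterial iron carriers, 1.37, 0.0161). All 3 belong to the list of 21 transport genes, of which 19 were tested. *Lcn2* was at 65.7, 48.0 and 57.9 CPM in the livers labelled WT and at 120.5, 197 and 128 CPM in those labelled *Themis*-KO. Neutrophils also make *Lcn2*, and 5 neutrophil markers summed to 2.11 to 3.71 CPM and 3.02 to 8.54 CPM. *Retnlg*, *Ngp* and *Camp* were under 1 CPM in every liver. The other 2 markers, *S100a8* and *S100a9*, were not called by edgeR or DESeq2 and both had an unadjusted p under 0.05.

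*Ireb2*, which encodes iron regulatory protein 2, one of the proteins that bind the elements printed above, was lower in the livers labelled *Themis*-KO. It stood at 70.5, 64.8 and 56.6 CPM in the livers labelled WT and at 44.2, 45.5 and 46.0 CPM in those labelled *Themis*-KO, with no overlap. The log2 fold change was −0.50 (adjusted p = 0.0302, edgeR), and it was the one call among 6 tested genes of ferritin handling and IRP control. *Aco1*, which encodes iron regulatory protein 1, had a log2 fold change of −0.29 (adjusted p = 0.0808). *Ncoa4*, the receptor that delivers ferritin to lysosomes, had −0.15 (adjusted p = 0.288). The 4 genes with elements, *Fth1*, *Ftl1*, *Slc40a1* and *Tfrc*, all had positive log2 fold changes, from 0.10 to 0.25, and none was called. Of all genes tested 51.0% were positive, and over the 15 other fits *Slc40a1* changed sign in 3 and *Tfrc* in 2. A link to the level of *Ireb2* was not tested.

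In heme synthesis and breakdown 2 of 14 genes were called lower, *Cpox* (−0.64, adjusted p = 0.0281) and *Alas2* (−0.49, adjusted p = 0.0409), the coproporphyrinogen oxidase and the erythroid form of the first enzyme. The list's median log2 fold change was −0.23, and 11 of the 14 were negative. *Fech*, which inserts iron into heme, had −0.29 and did not pass after adjustment (unadjusted p = 0.0207). *Hmox1*, which breaks heme down and releases its iron, went the other way at 1.87 but did not pass (adjusted p = 0.0710). It was at 22.7, 21.6 and 33.5 CPM in the livers labelled WT and at 166, 90.1 and 27.1 CPM in those labelled *Themis*-KO, with *Themis*-KO replicate 3 again inside the WT range. Among 12 genes of mitochondrial iron and iron-sulfur clusters 1 was called lower, *Cisd1* (−0.53, adjusted p = 0.0315), and 11 were negative with a median of −0.17. *Iscu*, the cluster scaffold, had −0.08 (adjusted p = 0.670), and *Slc25a37*, which carries iron into mitochondria, had 0.11 (adjusted p = 0.576). *Trf*, plasma transferrin, had 0.08 (adjusted p = 0.637), and *Steap3*, which reduces iron in endosomes, had −0.47 (adjusted p = 0.0604).

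**Figure D4:**
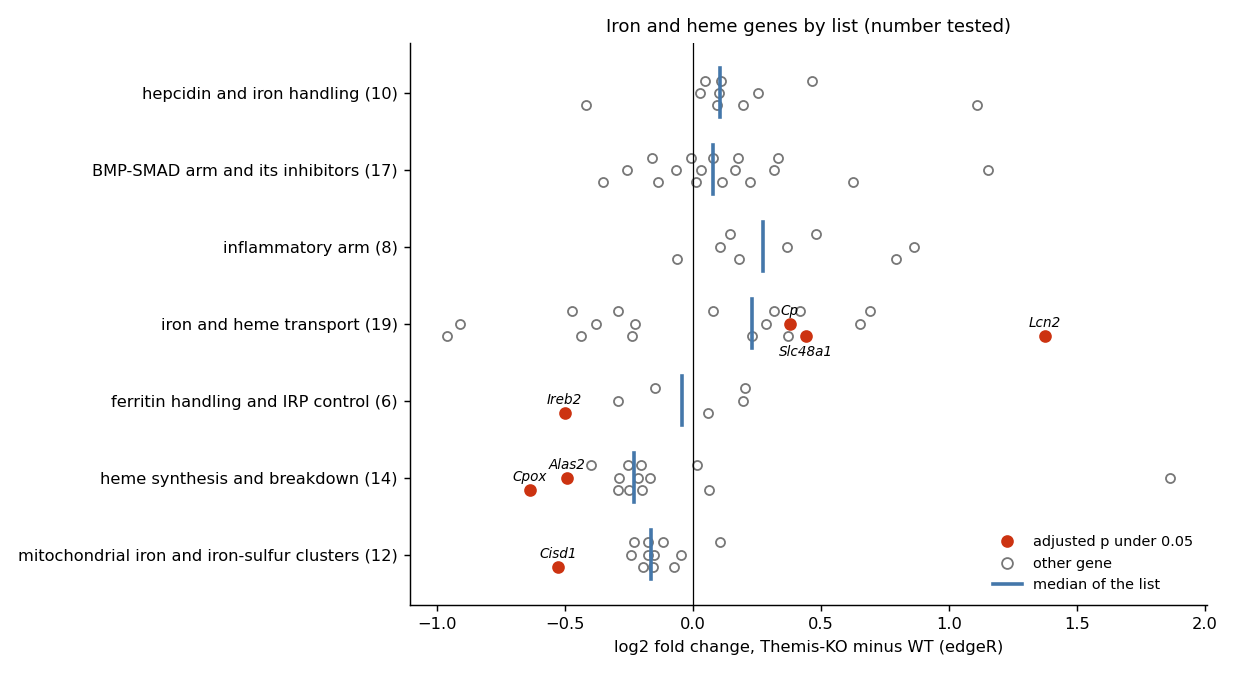
Log2 fold change, *Themis*-KO minus WT, of every tested gene (horizontal axis) in the group of hepcidin and iron handling genes and in 6 lists of further iron and heme genes (rows, number tested in brackets). Filled points passed an adjusted p of 0.05 and vertical bars are list medians. The 7 filled points lie in 4 of the lists, with none in the top row, whose median is 0.10.

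With edgeR, none of these 7 calls was kept when the mitochondrial type entered the fit or with the replicate number as a block. Those fits called few genes of any kind: 0 higher and 3 lower of 14496 with the mitochondrial type, and 17 and 45 with the block. With the mitochondrial type in the fit, or with WT replicates 1 and 2 left out together, the comparison rested on WT replicate 3 alone. The log2 fold changes kept their direction in all 3 fits. The remaining marker lists are given for the same livers. Stellate cell markers had 4 of 8 called higher (sum 306 to 342 CPM against 429 to 459), and cholangiocyte markers had 0 of 6 called by edgeR (27.0 to 31.3 against 31.5 to 58.4 CPM), with 2 at an unadjusted p under 0.05 and 2 called by DESeq2. Of 5 periportal and 5 pericentral hepatocyte markers, 3 each were called lower. Their sums were 2293 to 2551 and 2337 to 3247 CPM in the livers labelled WT and 1595 to 1819 and 1444 to 1872 CPM in those labelled *Themis*-KO. The part of these cells in the iron genes was not tested.

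The genes whose level across the 6 livers was most like that of *Hamp*, among 8415 with a mean of at least 10 CPM, were *Mllt1* (Pearson r = 0.99), *Nek7* (0.95) and *C1galt1* (0.93). Their own range was narrow: *Mllt1* went from 16.2 CPM in *Themis*-KO replicate 3 to 19.4 CPM in *Themis*-KO replicate 2, the livers where *Hamp* was lowest and highest. In all, 11 genes reached an r of 0.9. The 6 points share libraries and scaling, and the values are a description only.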

How the data were processed

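Poly(A) RNA of 6 livers was sequenced in paired-end reads. The submitters' processing notes name cutadapt 2.3, STAR 2.7.8a and RSEM 1.3.3 with GRCm38. The authors deposited 1 table of estimated counts per gene from RSEM, unnormalized and held as whole numbers. The rounding, the annotation release and the use of strand are not given in the sources used here. RSEM divides reads that match several genes.

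Groups came from the sample labels. With edgeR 4.0.16 in R 4.3.3, filterByExpr removed 10907 genes of low count, TMM gave the library scale, and a quasi-likelihood model with the label as its one term was tested by glmQLFTest. The Benjamini-Hochberg adjustment ran over 14496 genes. SE is the log2 fold change divided by the root of F. CPM carry no prior count, and log2 CPM for the comparison with *Hamp* carry a prior count of 2. Ratios were tested by exact permutation (scipy 1.17.1), for which 3 livers against 3 allow no p under 0.1. Coordinates and exon lengths are from GENCODE vM21, which held 25321 of the 25403 genes. With 3 livers a group, p-values measure the spread between these livers only. Total counts of 20679642 to 25649767 set the counting precision, which is lowest for *Bmp6* and *Hamp2*. No 2 livers of a group agreed within sampling noise (lowest chi-square per degree of freedom 9.12).

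The 10 genes and all lists were chosen with earlier results of these data known. Named are the 10 genes, *Themis*, every gene of the 6 lists of further iron and heme genes with an adjusted p under 0.05 (if over 5 in a list, the 5 with the largest change), up to 2 more genes of each of these lists with a role next to one of the 10, and the 3 genes most like *Hamp*. *Bmp2*, *Id2*, *Id3*, *Smad6*, *Smad7*, *Atoh8*, *Inhbb* and single marker genes were named after their values were seen. Tf is listed as *Trf*, and *Ftmt*, *Ahsp*, *Rhag* and *Ly6g* were not found by symbol. Some genes of the erythroid list are not reported here. Replicate numbers did not pair the livers (correlations of same-numbered livers 0.000277, −0.241 and −0.157).

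Alternatives were RLE size factors, upper quartile scaling, total counts alone, no filter, a minimum of 10 counts in each liver, the replicate block, DESeq2 1.42.0 (567 adjusted p-values left as NA), the mitochondrial type as covariate, both WT livers of that type left out, and each liver left out. In counts simulated for this comparison (14344 genes tested), edgeR recovered 82 of 99 genes changed by 1 and 97 of 97 changed by 2 on the log2 scale, and 8 of 187 calls were false. The simulation gave all genes the same spread between livers (biological coefficient of variation 0.157). It had no outlying liver and no mitochondrial split, so these rates need not hold for the real livers. Figures were drawn with matplotlib 3.10.9.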

Additional observations from a re-analysis of the deposited data

How the results depend on the processing

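With 3 livers a group, calls near the threshold depended on the fit. Among the 10 genes the count of 0 higher became 2 with total counts alone, 1 without a filter and 1 with DESeq2, and the count of 0 lower became 1 with RLE size factors, without a filter, with at least 10 counts in every liver and with DESeq2. Leaving out 1 liver gave 0 to 1 in each direction: *Themis*-KO replicate 3 brought in *Id1* and *Tfr2*, and WT replicate 3 brought in *Tfr2*. With upper quartile scaling, the replicate block, the mitochondrial type as covariate, or both WT livers of that type left out, both counts stayed at 0 by edgeR, where upper quartile scaling and the block each left 1 gene in each direction below 0.05 before adjustment and the other 2 fits left 0.

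Among the further iron and heme genes, 3 called higher became 7 with total counts alone, 8 without a filter and 7 with DESeq2, and 4 lower became 7 with DESeq2. Both counts were 0 with the replicate block, with the mitochondrial type as covariate and with both WT livers of that type left out, fits with fewer residual degrees of freedom, where 9, 5 and 5 higher and 8, 4 and 4 lower had an unadjusted p under 0.05. Leaving out 1 liver gave 0 to 11 higher and 0 to 15 lower, with the highest counts without *Themis*-KO replicate 3. Leaving out any of the other 5 gave at most 1 higher and, except for WT replicate 3 (4), 0 lower. For all genes, 721 higher and 600 lower became 2228 and 2039 without *Themis*-KO replicate 3, 8 and 12 without *Themis*-KO replicate 1, 1279 and 1090 with DESeq2, 17 and 45 with the replicate block, 0 and 3 with the mitochondrial covariate, and 0 and 9 without both WT livers. Leaving out WT replicates 1, 2 and 3 gave 12 and 32, 19 and 57, and 481 and 369, and leaving out *Themis*-KO replicate 2 gave 27 and 41. Total counts alone gave 1449 and 387, with a median log2 fold change of 0.15 over all genes against 0.01. The cause of these changes was not tested.

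The direction turned only for small values. *Hamp* was −0.10 with the block, −0.32 with the mitochondrial covariate and −0.33 without both WT livers, and −0.59 to 0.31 with 1 liver left out. With the covariate and without both WT livers, *Slc40a1* was −0.013 and −0.032, *Slc25a37* −0.021 and −0.041, and *Iscu* 0.078 and 0.059, with *Iscu* at 0.063 under total counts alone. With 1 liver left out, *Bmp6* ranged from −0.011 to 0.11, *Tfrc* from −0.052 to 0.19, *Slc40a1* from −0.046 to 0.21, *Slc25a37* from −0.00486 to 0.17 and *Iscu* from −0.17 to 0.00635. *Hamp2*, *Id1*, *Hfe*, *Tfr2*, *Fth1* and *Ftl1* kept their direction in all 15 fits. The ferritin ratio difference of 0.06 ranged from 0.02 to 0.09 with 1 liver left out. The replicate block, whose numbers do not pair the livers, moved *Id1* to an adjusted p of 0.122 and *Tfr2* to 0.123.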
